A study of Homo sapiens with 8 samples.

Results

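The comparison described here is doxorubicin given after the compound 1035 against 1035 without doxorubicin, in SupB15 cells. SupB15 is an established human line of Philadelphia chromosome-positive precursor B-cell acute lymphoblastic leukemia, and the series calls 1035 a histone deacetylase (HDAC) inhibitor. The comparison holds 4 of the 8 RNA libraries, 2 in each group, and covers all genes. The 1035 group received 2 µM of 1035 for 46 h. The combination group received 2 µM of 1035 for 36 h and then 0.1 µM doxorubicin for 10 h. The labels do not say if 1035 stayed on the cells during those 10 h, so doxorubicin and a shorter exposure to 1035 cannot be told apart in this comparison. The remaining 4 libraries came from cells given the solvent DMSO for 46 h and from cells given 0.1 µM doxorubicin for 10 h with no 1035. They show a doxorubicin step without 1035. The labels give no DMSO time for these doxorubicin cells, so the drug and a different solvent exposure cannot be told apart there. All cells were of 1 line grown in the same serum-containing medium, and all 4 groups share the BCR-ABL1 fusion of that line.

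The anthracycline doxorubicin holds topoisomerase II on DNA in its cleaved state and so leaves double-strand breaks. Such breaks are known to stabilise the transcription factor p53, which turns on genes of cell cycle arrest, repair and cell death. They are also known to release NF-kB, a family of dimeric transcription factors held in the cytoplasm by inhibitors of the IkB family, and NF-kB then induces those same inhibitors as negative feedback. The replication-dependent histone genes form a further class that follows DNA synthesis, since their messages are made in S phase and decay when replication stops. HDAC inhibitors raise acetylation of histones and other proteins and are known to change the expression of many genes on their own.

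Promoters of genes that rose with the doxorubicin step are shown first, because several hold a match to an NF-kB motif or to a p53 half-site. The sequences are RefSeq promoter windows on GRCh38.p14, 100 bases each, 5′ to 3′ on the gene's strand, and they were chosen after the matches were seen. Capitals mark matches to the 10-letter NF-kB consensus (the kB motif), searched on both strands in the 250 bases before the annotated start. The windows are those of NFKBIA (chr14:35404776-35404875, minus strand), TNFAIP3 (chr6:137867153-137867252, plus strand), NFKB2 (chr10:102394440-102394539, plus strand), LTB (chr6:31582457-31582556, minus strand) and MIR3142HG, the host gene of the microRNA miR-146a (chr5:160468086-160468185, plus strand). In TNFAIP3 and NFKB2 the capitals form 2 separate stretches, and a stretch longer than the motif holds overlapping matches.
NFKBIA: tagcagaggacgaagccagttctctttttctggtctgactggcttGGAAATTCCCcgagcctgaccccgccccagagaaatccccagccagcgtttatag
TNFAIP3: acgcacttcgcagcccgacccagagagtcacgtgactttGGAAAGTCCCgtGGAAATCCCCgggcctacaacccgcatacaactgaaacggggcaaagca
NFKB2: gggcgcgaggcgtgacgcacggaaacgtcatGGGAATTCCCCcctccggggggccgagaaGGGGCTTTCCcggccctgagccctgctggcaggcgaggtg
LTB: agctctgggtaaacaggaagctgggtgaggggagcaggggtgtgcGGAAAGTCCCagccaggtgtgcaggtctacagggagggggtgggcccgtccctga
MIR3142HG: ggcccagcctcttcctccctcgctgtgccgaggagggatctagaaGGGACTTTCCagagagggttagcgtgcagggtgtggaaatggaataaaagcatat

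The windows of 3 p53 target genes follow, with the 10-letter p53 half-site in capitals, searched in the same way. They are those of SESN1 (chr6:109008989-109009088, minus strand), RPS27L (chr15:63157482-63157581, minus strand) and PLK2 (chr5:58460164-58460263, minus strand).
SESN1: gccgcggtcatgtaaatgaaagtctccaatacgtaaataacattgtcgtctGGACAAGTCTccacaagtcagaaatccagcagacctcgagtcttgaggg
RPS27L: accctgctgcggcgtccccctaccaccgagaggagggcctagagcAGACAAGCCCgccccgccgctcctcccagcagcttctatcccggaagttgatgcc
PLK2: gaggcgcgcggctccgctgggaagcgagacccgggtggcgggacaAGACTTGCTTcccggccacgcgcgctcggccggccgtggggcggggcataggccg

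The 4 compared libraries held 11760542 to 13725592 reads on the genes that all libraries share. All 11 markers of precursor B cells were above 10 CPM, that is, reads of a gene scaled to a common library size, in each of the 4. Of the markers of other cell types, 6 of 16 for T and NK cells and 7 of 15 for myeloid cells were tested. So were 2 of 10 for erythroid cells and 7 of 12 for stroma. In that order, 4, 3, 1 and 4 of these were above 10 CPM in each of the 4 libraries. None of those tested was called in the combination against 1035. The second 1035 library and the second doxorubicin library stood apart from the rest at low counts. Of 277 genes with at least 10 reads in at most 2 of the 8 libraries, 177 reached 10 reads in the second 1035 library and 144 in the second doxorubicin library, against 19 to 63 in each of the other 6. Those 2 libraries also held the highest summed level of 4 mitochondrial light-strand genes, 247.1 and 107.0 CPM against 20.74 to 33.86 CPM. The numbers of called genes in each comparison and in the p53, NF-kB and histone lists are given below with and without these 2 libraries.

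The doxorubicin step in 1035-treated cells changed few genes. With edgeR's quasi-likelihood test over 16320 genes at a false discovery rate of 0.05, 57 genes rose (0.349% of those tested) and 24 fell (0.147%). Of the genes that rose, 13 rose at least 2-fold, and none of the 24 fell that far. The list of p53 target genes held 16 of the 57 that rose and the list of NF-kB targets 10, and the replication-dependent histones held 18 of the 24 that fell. Across all genes tested the median log2 fold change was -0.00285. Without the second 1035 and second doxorubicin libraries the counts were 72 higher and 32 lower. Leaving out the second combination library gave 29 higher genes and 1 lower, and leaving out either doxorubicin library gave 87 and 56. The number of falls was also 4 without the second 1035 library, 11 without the first combination library and 49 without the first 1035 library.

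**Figure D1:**
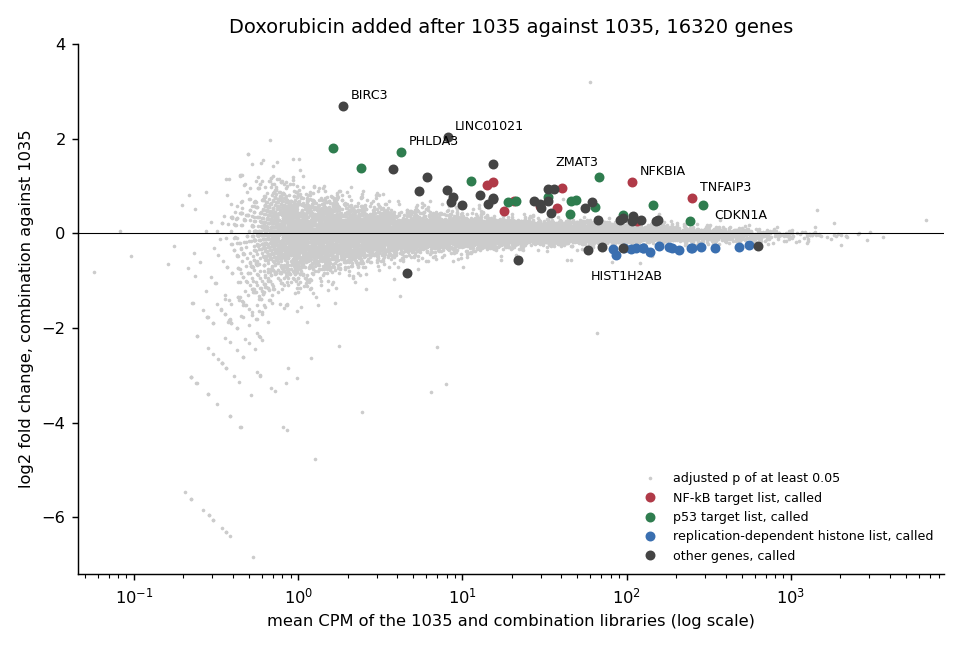
Log2 fold change of the combination against 1035 (vertical axis) by the mean CPM of the 4 libraries (horizontal log axis) for 16320 genes. Coloured points are the 81 genes past the false discovery rate, by gene list. Called rises reach 2.69 for BIRC3, while the histone falls lie in a narrow band between -0.45 and -0.25.

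NFKBIA and TNFAIP3, a pair of feedback inhibitors of NF-kB, were among the rises of smallest p. NFKBIA encodes IkBα, which binds NF-kB and keeps it out of the nucleus. It was at 67.8 and 71.6 CPM in the 1035 libraries and at 150 and 143 CPM in the combination libraries. The groups are far apart, and both combination libraries also exceed the doxorubicin libraries at 131 and 124 CPM and the DMSO libraries at 98.5 and 96.2 CPM. The log2 fold change of NFKBIA was 1.07 ± 0.06 (SE, n = 2 against 2, edgeR adjusted p = 2.4e-15). TNFAIP3 encodes A20, a ubiquitin-editing enzyme that shuts off signalling to NF-kB. Its level was 192 and 185 CPM in 1035 and 302 and 327 CPM in the combination, a log2 fold change of 0.74 ± 0.06 (edgeR adjusted p = 1.2e-11). Without 1035, TNFAIP3 stood at 173 and 177 CPM in DMSO and 202 and 200 CPM in doxorubicin, so the combination libraries were the highest of the 8.

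The feature named MIR146A in the files rose as well. Its identifier, ENSG00000253522, belongs to MIR3142HG, the transcript from which miR-146a is cut, so the reads speak of the host transcript and not of the mature microRNA. Mature miR-146a is known to repress adaptor proteins upstream of NF-kB. Its sequence is shown with the seed, bases 2 to 8, in capitals (RefSeq, GRCh38.p14, chr5:160485372-160485393, plus strand).
miR-146a-5p: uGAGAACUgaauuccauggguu
The MIR146A feature was at 25.9 and 23.5 CPM in 1035 and at 46.6 and 47.8 CPM in the combination, a log2 fold change of 0.93 ± 0.10 (edgeR adjusted p = 4.7e-08). In the cells without 1035 it was low with and without doxorubicin, at 12.4 and 16.3 CPM in DMSO and 15.6 and 13.2 CPM in doxorubicin. NFKBIZ, which encodes an atypical nuclear IkB protein, was at 23.7 and 24.1 CPM in 1035 and 33.3 and 37.9 CPM in the combination (log2 fold change 0.57 ± 0.09, edgeR adjusted p = 0.0002). ZC3H12A encodes an endonuclease that degrades inflammatory messages, and it rose from 7.92 and 7.80 CPM to 11.6 and 12.3 CPM (log2 fold change 0.60 ± 0.15, edgeR adjusted p = 0.043). The call for ZC3H12A was lost under 7 of 14 alternatives, DESeq2 among them.

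Among the NF-kB subunits, the genes of the non-canonical arm moved most. NFKB2, which encodes the precursor of p52, was at 28.2 and 26.2 CPM in 1035 and at 51.8 and 55.0 CPM in the combination (log2 fold change 0.97 ± 0.10, edgeR adjusted p = 2.3e-08). RELB, the partner of p52, was at 10.0 and 8.61 CPM in 1035 and 16.9 and 21.0 CPM in the combination (log2 fold change 1.01 ± 0.13, edgeR adjusted p = 1.5e-06). For both genes the lower combination library lies well above the higher 1035 library. NFKB1, the precursor of p50, moved less, from 105 and 106 CPM to 127 and 124 CPM (log2 fold change 0.26 ± 0.06, edgeR adjusted p = 0.039), and this call was lost under 8 of 14 alternatives. REL did not pass the test, with a log2 fold change of 0.16 ± 0.08 (edgeR adjusted p = 0.77). TRAF3, an adaptor that restrains the non-canonical pathway, rose from 22.3 and 26.7 CPM to 33.4 and 37.8 CPM (log2 fold change 0.54 ± 0.10, edgeR adjusted p = 0.00072). The TRAF3 call was lost under 2 of 14 alternatives.

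The NF-kB list also held ligands and surface proteins, of which LTB, TNF, CD83 and CD40 rose, while LTA and ICAM1 did not pass the test. LTB, the membrane-bound lymphotoxin β, was at 9.93 and 9.67 CPM in 1035 and at 20.1 and 21.2 CPM in the combination (log2 fold change 1.08 ± 0.13, edgeR adjusted p = 2.6e-07). Its DMSO libraries were at 4.02 and 4.83 CPM and its doxorubicin libraries at 5.71 and 4.44 CPM, and these 2 groups overlap. TNF, the inflammatory cytokine, was at 7.08 and 7.74 CPM in DMSO, 30.7 and 31.0 CPM in 1035, and 41.5 and 47.8 CPM in the combination. The log2 fold change of TNF against 1035 was 0.53 ± 0.09 (edgeR adjusted p = 0.00068), and without the second combination library the adjusted p was 0.29. CD83 and CD40 are surface proteins of activated B cells. CD83 rose from 16.6 and 15.0 CPM to 25.3 and 25.4 CPM (log2 fold change 0.68 ± 0.11), and CD40 from 15.4 and 14.6 CPM to 20.7 and 21.1 CPM (log2 fold change 0.48 ± 0.11), with edgeR adjusted p of 0.00023 and 0.038. CD40 lost its call under 5 of 14 alternatives, DESeq2 among them.

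BIRC3, which encodes the ubiquitin ligase cIAP2 and is a known target and regulator of NF-kB, had the largest rise of all called genes. It was at 0.288 and 0.731 CPM in 1035 and 2.89 and 3.64 CPM in the combination. These levels rest on 4 and 9 reads against 38 and 44. The log2 fold change of BIRC3 was 2.69 ± 0.43 (edgeR adjusted p = 0.00013), and without the second combination library the adjusted p was 0.0514. In the cells without 1035, BIRC3 was at 0 and 0.132 CPM in DMSO and 1.46 and 1.37 CPM in doxorubicin. Of the 18 members of the NF-kB list that were tested, 10 rose and none fell, against 0.349% and 0.147% of all genes, and their median log2 fold change was 0.50. The 8 that did not pass were BCL3 (0.81 ± 0.29), TNIP1 (0.18), NFKBIE (0.25), ICAM1 (0.43), REL (0.16), TRAF1 (-0.27), LTA and NFKBIB. Leaving out any 1 library gave 6 to 10 called members, and leaving out the 2 libraries that stood apart gave 9.

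**Figure D2:**
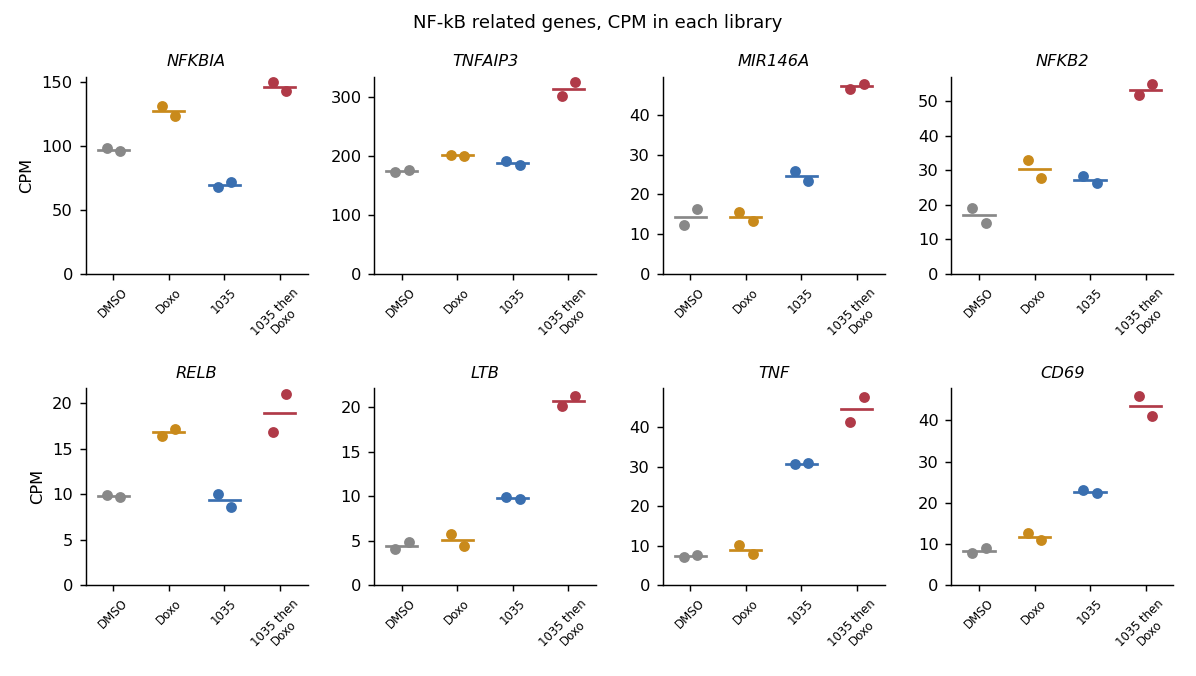
CPM (vertical axis, from 0) of 8 NF-kB related genes in each of the 8 libraries, by treatment; points are libraries and bars are means of 2. For each gene both combination libraries lie above both 1035 libraries, as in all 57 called rises and in 2864 of 16320 genes tested. TNF, LTB, CD69, MIR146A, NFKB2 and TNFAIP3 are also higher in both 1035 libraries than in both DMSO libraries.

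In the p53 target list, 16 of 37 members tested rose and none fell, against 0.349% and 0.147% of all genes. The other 21 did not pass. Of the 37, 36 had a positive log2 fold change, against 8010 of 16320 genes tested, and the median was 0.36. ZMAT3, an RNA-binding protein of the p53 program, was at 42.5 and 40.1 CPM in 1035 and at 92.9 and 96.0 CPM in the combination (log2 fold change 1.19 ± 0.07, edgeR adjusted p = 2.4e-15). CDKN1A, the gene of the cyclin-dependent kinase inhibitor p21, was at 228 and 237 CPM in 1035 and at 355 and 352 CPM in the combination (log2 fold change 0.60 ± 0.06, edgeR adjusted p = 1.4e-09). For CDKN1A the combination held the highest level of the 4 groups, since doxorubicin libraries were at 289 and 273 CPM and DMSO libraries at 193 and 186 CPM. ZMAT3 instead was highest in doxorubicin, at 105 and 108 CPM, and its DMSO libraries were at 52.8 and 57.9 CPM.

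Some p53 targets in the combination were near or below their DMSO level, among them DDB2, XPC, AEN and TRIM22. DDB2 and XPC recognise ultraviolet lesions in nucleotide excision repair. DDB2 was at 34.8 and 35.7 CPM in 1035 and 55.9 and 56.4 CPM in the combination, below its DMSO level of 60.0 and 60.7 CPM (log2 fold change against 1035 of 0.67 ± 0.08, edgeR adjusted p = 2.6e-07). XPC was at 38.2 and 38.9 CPM in 1035 and 51.1 and 51.5 CPM in the combination, with 49.5 and 47.0 CPM in DMSO. AEN, a nuclease induced during apoptosis, was at 23.8 and 25.7 CPM in 1035 and 42.6 and 41.3 CPM in the combination, against 48.8 and 45.4 CPM in DMSO (log2 fold change against 1035 of 0.77 ± 0.09, edgeR adjusted p = 1.8e-07). TRIM22, also an interferon-inducible antiviral protein, was at 118 and 112 CPM in 1035, 169 and 179 CPM in the combination and 245 and 246 CPM in DMSO. PHLDA3, an inhibitor of the kinase AKT, was at 1.08 and 2.93 CPM in 1035 and 6.38 and 6.53 CPM in the combination, above its 4.59 and 5.42 CPM in DMSO, with 12.8 and 11.9 CPM in doxorubicin without 1035. The log2 fold change of PHLDA3 against 1035 was 1.72 ± 0.26 (edgeR adjusted p = 0.00011), on 15 and 36 reads against 84 and 79.

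The other p53 targets that rose were kinases, stress proteins and receptors. PLK2, a polo-like kinase, was at 6.77 and 7.56 CPM in 1035 and at 16.0 and 14.7 CPM in the combination (log2 fold change 1.10 ± 0.14), and PLK3 at 16.0 and 16.7 CPM and at 25.5 and 26.7 CPM (0.67 ± 0.10). SESN1, a stress-induced brake on mTORC1, rose by a log2 fold change of 0.57 ± 0.08, FDXR, a mitochondrial reductase, by 0.66 ± 0.11, and RPS27L, a p53-inducible ribosomal protein, by 0.70 ± 0.10. RRM2B, the p53-inducible ribonucleotide reductase subunit, rose by 0.40 ± 0.07 and the helicase subunit ASCC3 by 0.25 ± 0.06. The receptors FAS and EDA2R had large log2 fold changes on few reads, 1.38 ± 0.29 for FAS (18 and 17 reads against 44 and 44) and 1.79 ± 0.37 for EDA2R (11 and 8 reads against 29 and 35). ASCC3 lost its call under 6 of 14 alternatives, FAS under 5, RRM2B and EDA2R under 3, and RPS27L and XPC under 2.

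Other well-known p53 targets did not pass the test. MDM2, the ubiquitin ligase that degrades p53, was at 1722 and 1658 CPM in 1035 and 2020 and 1917 CPM in the combination, a log2 fold change of 0.22 ± 0.06 (edgeR adjusted p = 0.081). TNFRSF10B, the death receptor DR5, had 0.41 ± 0.11 (edgeR adjusted p = 0.073), GADD45A 0.39 ± 0.10, TRIAP1 0.36 ± 0.10, C12orf5, which encodes the metabolic regulator TIGAR, 0.41 ± 0.11 and the translesion polymerase gene POLH 0.26 ± 0.07. BTG2, an antiproliferative gene, had 0.12 ± 0.07. The number of list members called ranged from 10 to 23 when 1 library was left out, and was 18 without the 2 libraries that stood apart.

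**Figure D3:**
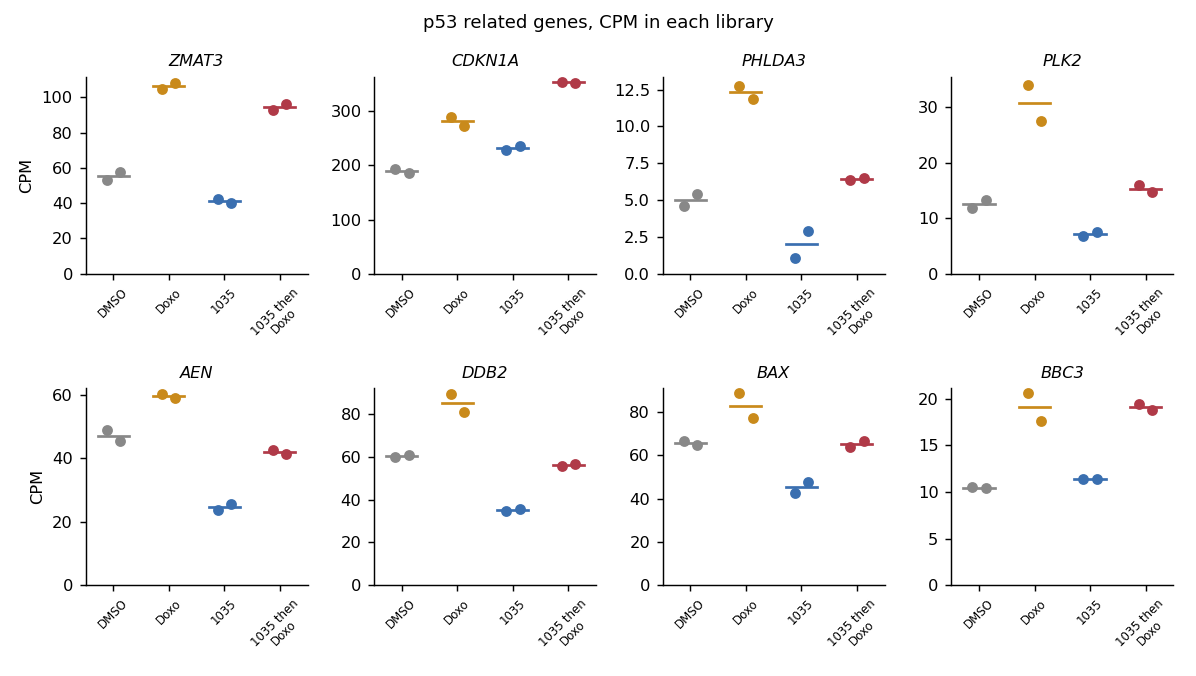
CPM (vertical axis, from 0) of 8 p53 related genes in each of the 8 libraries, by treatment; points are libraries and bars are means of 2. Both combination libraries lie above both 1035 libraries in every panel, as in all 57 called rises and in 2864 of 16320 genes tested. ZMAT3, PHLDA3, PLK2, AEN, DDB2 and BAX stay below their level in doxorubicin without 1035, CDKN1A lies above it and BBC3 overlaps it.

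In the lists of cell death genes, few members rose. In the BCL2 family, 2 of 16 members tested rose, against 0.349% of all genes. BAX, which permeabilises the mitochondrial outer membrane, was at 42.7 and 47.8 CPM in 1035 and at 63.8 and 66.9 CPM in the combination (log2 fold change 0.53 ± 0.08, edgeR adjusted p = 4.3e-05). BBC3, which encodes the BH3-only protein PUMA, was at 11.4 and 11.4 CPM in 1035 and at 19.5 and 18.8 CPM in the combination (log2 fold change 0.75 ± 0.12, edgeR adjusted p = 0.00013), close to its 20.6 and 17.6 CPM in doxorubicin without 1035. PMAIP1, which encodes NOXA, had a log2 fold change of 0.08 ± 0.07. BMF, a BH3-only gene at 66.1 and 67.4 CPM in DMSO and 259 and 247 CPM in 1035, was at 243 and 252 CPM in the combination. The survival genes BCL2 and BCL2L1 had log2 fold changes of -0.08 ± 0.06 and -0.04 ± 0.09. Of 22 death receptor and caspase genes, BIRC3 and CFLAR rose, against the same 0.349%. The receptors FAS and EDA2R and the nuclease AEN, which also rose, were counted in the p53 list and not here. CFLAR, an inhibitor of caspase-8, had a log2 fold change of 0.29 ± 0.07 and lay at the limit of the test, and its call was lost under 7 of 14 alternatives.

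The falls were mainly replication-dependent histone genes, all of modest size. HIST1H2AB had the strongest evidence, with 97.9 and 102 CPM in 1035 and 74.3 and 71.6 CPM in the combination (log2 fold change -0.45 ± 0.07, edgeR adjusted p = 5.9e-05). Its DMSO libraries were at 269 and 245 CPM and its doxorubicin libraries at 193 and 179 CPM, so both 1035 libraries already lay far below both. HIST1H2BJ was at 150 and 167 CPM in 1035 and 124 and 117 CPM in the combination (log2 fold change -0.40 ± 0.06, edgeR adjusted p = 0.00015). HIST1H2AD had -0.34 ± 0.06 and HIST1H2AG -0.32 ± 0.06. The linker histone HIST1H1D had -0.25 ± 0.06, at 596 and 603 CPM in 1035 and 517 and 494 CPM in the combination.

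Of 57 histone genes tested, 18 fell and none rose, against 0.147% and 0.349% of all genes. Their median log2 fold change was -0.23, against -0.00285 over all genes. The value was negative for 56 of them, against 8310 of 16320 genes tested. The exception was HIST1H3E at 0.01 ± 0.13. Their summed level was 13940 and 15290 CPM in the 1035 libraries and 12860 and 12220 CPM in the combination libraries. As the median of the genes' log2 ratios to the DMSO mean, the 1035 libraries were at -0.83 and -0.66 and the combination libraries at -0.95 and -1.04. The 2 combination libraries lie below both 1035 libraries, but the 1035 libraries also differ from each other, and the number of calls depended on single libraries. It was 1 without the second combination library, 2 without the second 1035 library, 5 without the first combination library and 30 without the first 1035 library. It was 31 without a doxorubicin library and 9 without the 2 libraries that stood apart, and the list's median stayed between -0.30 and -0.16 in all of these fits. HIST1H2AB alone of the 24 genes that fell was called under all 14 alternatives. Near-identical histone copies can exchange reads, so the single genes are less certain than their sum.

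**Figure D4:**
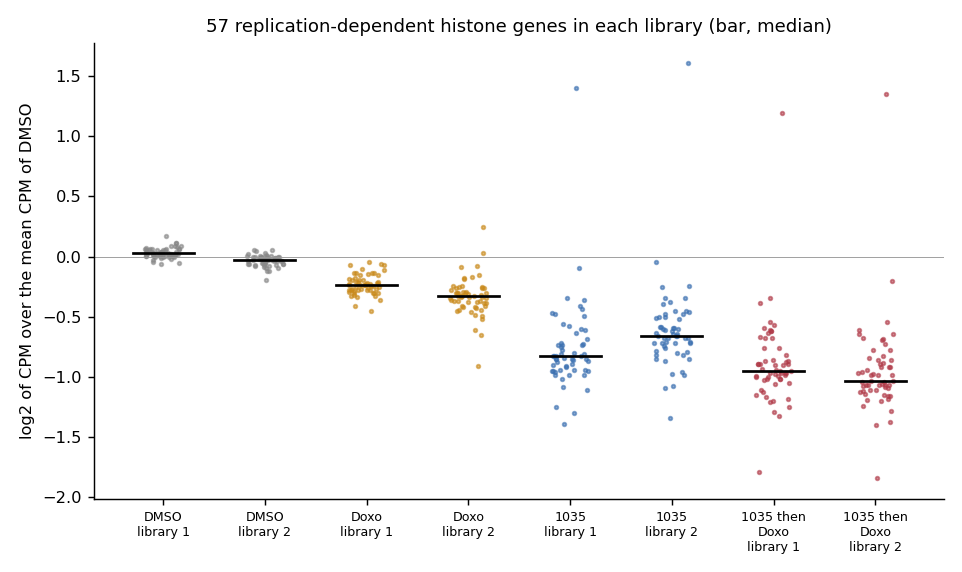
Log2 of CPM over the mean CPM of the DMSO libraries (vertical axis) for 57 replication-dependent histone genes in each of the 8 libraries; points are genes and bars are medians. Medians are near 0 in DMSO, -0.24 and -0.33 in doxorubicin, -0.83 and -0.66 in 1035 and -0.95 and -1.04 in the combination.

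Outside the lists, 22 genes rose. LINC01021, a long non-coding RNA known as a p53 target, was at 2.52 and 3.90 CPM in 1035 and 12.3 and 13.8 CPM in the combination (log2 fold change 2.04 ± 0.17, edgeR adjusted p = 9.3e-11). RGS16, which switches off G protein signalling, was at 8.20 and 8.05 CPM in 1035 and 20.9 and 23.9 CPM in the combination (log2 fold change 1.46 ± 0.13, edgeR adjusted p = 1.7e-10). CD69, an early activation antigen of lymphocytes, was at 23.2 and 22.3 CPM in 1035 and 45.8 and 41.0 CPM in the combination (log2 fold change 0.93 ± 0.10, edgeR adjusted p = 1.0e-08). These 3 genes were called under every alternative. CD70 and TNFSF9, both ligands of the tumour necrosis factor family, rose by log2 fold changes of 0.69 ± 0.10 and 0.91 ± 0.17. TNFSF9 lost its call with DESeq2.

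The non-coding PVT1 was at 27.1 and 23.5 CPM in 1035 and 38.2 and 43.0 CPM in the combination (log2 fold change 0.68 ± 0.09, edgeR adjusted p = 1.0e-05). RND1, a GTPase without hydrolysing activity, had 1.37 ± 0.26 and C2CD4B 1.19 ± 0.22, both from fewer than 5 CPM in the 1035 libraries. The immunoglobulin genes IGKC and IGLL5 rose by 0.77 ± 0.15 and 0.29 ± 0.06. Of 14 alternatives, C2CD4B lost its call under 4, IGKC and IGLL5 under 3 and RND1 under 1. DESeq2 was among them for C2CD4B and IGKC. F3, which encodes tissue factor, was at 11.0 and 11.4 CPM in 1035 and 16.2 and 18.3 CPM in the combination, and this rise over 1035 was not called by DESeq2. The prostaglandin receptor gene PTGER4, the guanine exchange factor ARHGEF3, the autophagy gene VMP1 and LIMD2 rose by 0.26 to 0.37 in log2 fold change. Of these last 4, LIMD2 alone kept its call under every alternative.

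A few genes outside the histone list also fell. UHRF1, which guides maintenance DNA methylation after replication, was at 636 and 737 CPM in 1035 and at 575 and 568 CPM in the combination, with 1135 and 1099 CPM in DMSO (log2 fold change against 1035 of -0.26 ± 0.06, edgeR adjusted p = 0.023). UHRF1 lost its call under 5 of 14 alternatives, each of them the loss of 1 library. RP11-356I2.4, annotated antisense to the TNFAIP3 locus with its start 1.045 kb from that of TNFAIP3, was at 24.5 and 27.1 CPM in 1035 and 17.5 and 17.4 CPM in the combination (log2 fold change -0.56 ± 0.10, edgeR adjusted p = 0.00072). It was at 54.2 and 54.0 CPM in DMSO and 54.0 and 54.6 CPM in doxorubicin. The sources used here do not give the strand setting of the counting, and reads of TNFAIP3 and of its antisense neighbour may not be fully separated. The membrane skeleton gene ANK1 (-0.85 ± 0.21), KIAA0226L (-0.32 ± 0.07) and the immunoglobulin segment IGHV3-53 (-0.29 ± 0.07) fell as well. Of 14 alternatives, IGHV3-53 lost its call under 7, ANK1 under 4 and KIAA0226L under 3. DESeq2 was among them for IGHV3-53 and ANK1.

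Early response and kinase-output genes moved in part. Of 27 immediate early genes, JUN (log2 fold change 0.81 ± 0.14), IER5 (0.67 ± 0.10) and ATF3 (0.67 ± 0.15) rose and none fell, against 0.349% and 0.147% of all genes. Of 14 alternatives, ATF3 lost its call under 5, DESeq2 among them, IER5 under 3 and JUN under 1. JUN, a subunit of AP-1, was at 8.42 and 10.1 CPM in 1035 and 15.6 and 16.8 CPM in the combination. Of 17 genes of BCR-ABL1 and STAT5 output, the survival kinase PIM2 rose, from 25.0 and 21.6 CPM to 38.4 and 33.8 CPM (log2 fold change 0.63 ± 0.10, edgeR adjusted p = 0.00017), and the other 16 did not pass. Of 40 interferon response genes, MB21D1, which encodes the DNA sensor cGAS, rose by 0.42 ± 0.09 and no other passed. MB21D1 lost its call under 3 of 14 alternatives and PIM2 under 1. The fusion partners BCR and ABL1 had log2 fold changes of -0.10 ± 0.06 and 0.01 ± 0.06.

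Most of the programs followed in lists had no called member. The drug's own targets TOP2A and TOP2B had log2 fold changes of -0.06 ± 0.06 and -0.15 ± 0.06, and SLC22A16, a carrier known to import doxorubicin, was at 6.48 and 7.88 CPM in 1035 and 4.03 and 5.54 CPM in the combination (-0.59 ± 0.18, edgeR adjusted p = 0.19). None of 42 G2/M and mitosis genes passed, although 34 of them had a negative log2 fold change and 10 were lower at an unadjusted p of 0.05. Over all 16320 genes tested, 8310 were negative and 518 were lower at that p. The median of the G2/M list was -0.07, with CENPF, a kinetochore protein, at -0.17 ± 0.06. None of 44 genes of G1/S and DNA replication passed (median -0.06), and none of 37 genes of homologous recombination (median 0.01). CHEK1, the replication checkpoint kinase, had 0.03 ± 0.06 and H2AFX, the source of the damage mark γH2AX, -0.11 ± 0.06. The lists of end joining, damage checkpoint, NRF2 targets, MHC class I and II, heat shock, cholesterol synthesis, integrated stress response and ribosomal proteins likewise had no called member.

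B-lineage identity genes did not pass either. None of 34 was called, and RAG1, the recombinase of antigen receptor genes, had -0.22 ± 0.06 (edgeR adjusted p = 0.13), while MS4A1, which encodes CD20, had 0.20 ± 0.06 (edgeR adjusted p = 0.20). HDAC1, HDAC2 and HDAC3 had log2 fold changes of -0.02, -0.03 and -0.05, each with an SE of 0.06, and MYC had 0.00 ± 0.06. The 15 mitochondrially encoded genes had a median of -0.33 with no call. MT-ND6 was at 25.5 and 188 CPM in the 1035 libraries and 29.7 and 18.8 CPM in the combination libraries, so its log2 fold change of -2.11 ± 1.23 rests on the second 1035 library.

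The doxorubicin step without 1035 was compared in the other 4 libraries, which share no sample with the first 4. Both comparisons come from the same fit and use the same estimate of each gene's spread. Their lists of calls are therefore not fully independent. Doxorubicin against DMSO gave 128 rises (0.784% of genes tested) and 89 falls (0.545%) by the same test, 217 genes in all (1.33%). These numbers depended on single libraries. They were 59 and 39 without the second doxorubicin library and 634 and 546 without the first, 28 and 5 without the first DMSO library and 36 and 29 without the second. Without the second 1035 and second doxorubicin libraries they were 107 and 84. With all libraries, of the 57 rises after 1035, 32 were also rises there, which is 56.1% of the 57 and 25% of the 128. Of the 24 falls, 18 were shared, which is 75% of the 24 and 20.2% of the 89, and no gene was called in opposite directions. Of the 128 genes that rose without 1035, 120 had a positive log2 fold change after 1035, with a median of 0.16 there against 0.42 where they were called. The 57 rises had a median of 0.67 after 1035, where they were called, and of 0.39 without it.

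Counts and medians of the lists in both comparisons can be set side by side. The p53 list had 18 of 37 members higher without 1035 (median log2 fold change 0.32) and 16 of 37 after it (0.36). The histone list had 41 of 57 members lower without 1035 (median -0.29) and 18 after it (-0.23). The NF-kB list had 4 of 18 members higher without 1035 (median 0.26) and 10 after it (0.50). These counts are of members past the false discovery rate. At an unadjusted p of 0.05 the NF-kB and histone counts were closer. The NF-kB list then had 11 members higher without 1035 and 14 after it. The histone list had 51 and 45 lower, and the p53 list 29 and 27 higher. All 18 NF-kB members had a positive log2 fold change without 1035, and 16 had one after it. No test of a list as a whole was made, and the differences between these counts were tested only gene by gene.

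The test of that difference, the interaction, asks whether the log2 fold change of the doxorubicin step is larger or smaller with 1035. It called 3 genes higher (0.0184% of those tested) and none lower with edgeR. At an unadjusted p of 0.05 the numbers were 349 and 437 of 16320 genes, and DESeq2 called 2 and 0. Without the first doxorubicin library edgeR called 64 higher and 175 lower, and without the second DMSO library 1 and 0. Without the second 1035 and second doxorubicin libraries it called 4 and 2. The 3 genes were the NF-kB regulators NFKBIA, TNFAIP3 and MIR146A. For NFKBIA the step was 0.39 ± 0.06 without 1035 and 1.07 ± 0.06 with it, a difference of 0.68 ± 0.09 (edgeR adjusted p = 4.3e-05). NFKBIA is also the only one of the 3 that 1035 libraries held below DMSO libraries. For TNFAIP3 the difference was 0.53 ± 0.08 (edgeR adjusted p = 0.0011), and for MIR146A 0.91 ± 0.16 (edgeR adjusted p = 0.0062). No p53 target passed the interaction: for CDKN1A the difference was 0.03 ± 0.08, for ZMAT3 0.25 ± 0.10 and for TNFRSF10B -0.47 ± 0.17, the last 2 with an edgeR adjusted p of 0.95.

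**Figure D5:**
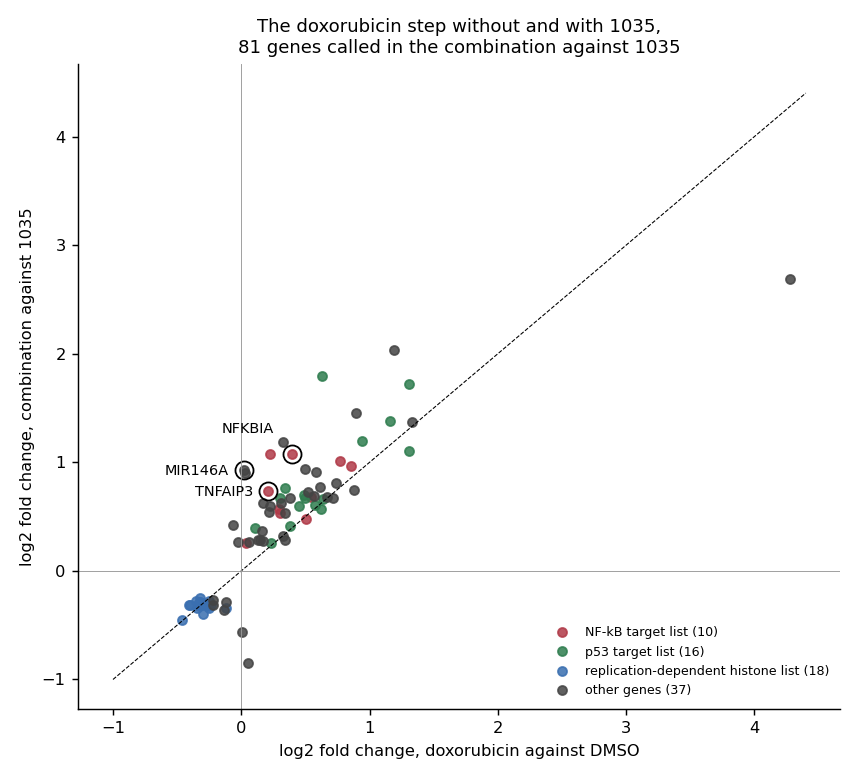
Log2 fold change of doxorubicin against DMSO (horizontal axis) and of the combination against 1035 (vertical axis) for the 81 genes called in the latter, coloured by gene list; the dashed line marks equal values. The circled NFKBIA, TNFAIP3 and MIR146A lie above the line, and the point at the far right is BIRC3, whose horizontal value rests on DMSO counts of 0 and 2 reads.

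The motif matches shown at the start were counted over all genes with a RefSeq window. Of 10778 tested genes with a window, 7.78% held the kB motif in the 250 bases before the start and 6.51% the p53 half-site. Over all 35116 RefSeq windows the shares were 5.21% and 5.57%. Of the 41 genes that rose and had a window, 15 held the kB motif (36.6%) and 7 the p53 half-site (17.1%), and of the 18 that fell, 1 held each. All but 1 of the 8 called NF-kB list members with a window had the kB motif. Half-sites were in 6 of 12 called p53 targets with a window, namely AEN, FAS, FDXR, PLK2, RPS27L and SESN1. CDKN1A and BBC3 are not among the genes with a match, which says only that the letters were not in this window. No test was made, and a match is not a bound site.

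Median fold changes differed little with gene length or abundance. The 15660 genes with a GENCODE 29 span were ordered by span and split into 10 bins of 1566. Their median was 0.04 in the shortest bin and -0.02 in the longest. In 10 bins of 1632 genes by abundance, the median was -0.09 in the lowest, which held no called gene, and -0.02 in the highest, which held 21 of the 81.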

How the data were processed

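Total RNA of SupB15 cells was sequenced in 8 libraries, 2 for each of 4 treatments. The series' design text calls the 2 samples per treatment independent, and p-values measure the spread between them. Per the labels' protocols, a stranded TruSeq kit was used after ribosomal RNA depletion with single reads of 50 bases. The submitters' processing notes name hg19, Novoalign 2.08.01 and DESeq2 1.4.5. How reads were counted, on which strand and with which annotation is not stated there, so overlapping and antisense genes are uncertain.

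The authors deposited, per the file headers, raw read counts per gene for 4 libraries in each of 4 tables, beside FPKM, log2 fold changes and adjusted p-values. Deposited FPKM values and log2 fold changes of the authors were not used. The deposited adjusted p-values of the authors were only counted, as an alternative. All 132880 counts held by more than 1 table were equal. Of the 17180 genes in the table of this comparison, 815 lacked a count in some library and were left out of the joint fit. Those kept numbered 16608, of which filterByExpr removed 288.

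The counts were normalised by TMM and fitted to all 8 libraries with 4 group means by the robust quasi-likelihood model of edgeR 4.0.16 (R 4.3.3). Two-sided F-tests were adjusted by Benjamini-Hochberg over 16320 genes at a false discovery rate of 0.05. The common biological coefficient of variation was 4.57%, with 4 residual degrees of freedom and a median prior of 35.6. Replicates varied more than sampling noise, with a chi-square over its degrees of freedom of 3.122 for 1035, 2.207 for the combination, 1.783 for DMSO and 4.554 for doxorubicin. Levels are TMM-normalised CPM, and the SE of a log2 fold change is its size over the square root of F. The fit was tested on simulated data. Library depth was 11760542 to 18144670 reads on shared genes, which limits genes of few reads.

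The comparison, the gene lists and the tests were chosen with earlier results of these data known. Genes are named if they were among the 10 largest rises or falls past the threshold, the 10 rises or falls of smallest p, the 4 members of smallest p in a list, the 8 of smallest p in the interaction, or in a set of p53, topoisomerase, repair, HDAC and fusion genes named whatever their values. Other genes named in the text, among them further called genes and uncalled p53 and NF-kB targets, were chosen after their values were seen. A few genes that these rules name are not reported here. Promoter windows and the miRNA sequence are from RefSeq tables on GRCh38.p14, and spans from GENCODE 29. Alternatives were the 4 compared libraries alone, DESeq2 size factors, no filter, a mean normalised count of at least 50, DESeq2 1.42.0, the replicate number as a block, each library left out and the authors' p-values. The fit without the 2 libraries that stood apart was added after seeing the data.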

Additional observations from a re-analysis of the deposited data

Results flagged for a closer look

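The doxorubicin step differed with and without 1035, by the interaction term of edgeR's quasi-likelihood test, for 3 genes. NFKBIA differed by a log2 value of 0.68 (adjusted p = 4.3e-05), and it was called under every alternative that could be fitted. TNFAIP3 differed by 0.53 (adjusted p = 0.0011). Its adjusted p was 0.113 without the second combination library and 0.0786 without the second DMSO library. MIR146A, the host transcript of miR-146a, differed by 0.91 (adjusted p = 0.0062), with 0.125 by DESeq2 and 0.577 without the second DMSO library. Leaving out the first or second combination library or the second 1035 library gave 0.173, 0.197 and 0.0578 for MIR146A. The end of 1035 exposure and the presence of 1035 cannot be told apart as the condition that goes with these differences.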

How the results depend on the processing

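With all 4 groups in the fit, 57 genes rose and 24 fell in the combination against 1035. With the 4 compared libraries alone the counts were 94 and 57, with 30 histone genes lower. The authors' deposited table had 22 and 15 at an adjusted p under 0.05, of which 18 and 9 were shared with edgeR, but 10308 of its 17180 adjusted p-values are exactly 1. Doxorubicin against DMSO, with 128 and 89, gave 74 and 56 with its 4 libraries alone, and 57 higher with DESeq2. Without the second 1035 and second doxorubicin libraries, 9 histone genes were called lower and the interaction had 2 lower genes. Leaving out each library in turn gave 29 to 87 higher and 1 to 56 lower genes in the combination against 1035. It gave 28 to 634 and 5 to 546 in doxorubicin against DMSO, and 1 to 64 and 0 to 175 in the interaction. The lowest DMSO counts came without the first DMSO library (28 and 5) and second DMSO library (36 and 29), and without the second doxorubicin library they were 59 and 39. The p53 list had 10 to 23 called members, the NF-kB list 6 to 10 and the histone list 1 to 31. The interaction needs all 4 groups and has no value from 4 libraries alone. Where an arm had 1 library left, that library was taken to vary like the other groups. The cause of these changes was not tested.

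Of the 57 rises, 25 were called under all 14 alternatives with a value for single genes, and of the 24 falls 1. Among genes that did not pass, the sign of a value near 0 turned. With 1 library left out, log2 fold changes ranged from -0.212 to 0.00427 for H2AFX, -0.0683 to 0.00132 for BMF, -0.00495 to 0.0614 for CHEK1, -0.0715 to 0.0228 for HDAC2, -0.0217 to 0.0418 for ABL1, -0.0915 to 0.113 for HIST1H3E and -0.0207 to 0.0277 for MYC. MYC was -0.00261 with DESeq2 size factors, -0.00224 over genes with a mean of at least 50 and -0.00201 with DESeq2.

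Differences between libraries with the same replicate number correlated at -0.0797 to 0.0819 over the 6 pairs of groups. Values this small show little difference shared by replicate number, and they cannot tell if the samples were paired. With the replicate block, 61 genes rose and 31 fell in the combination against 1035, 177 and 122 in doxorubicin against DMSO, and 4 and 12 in the interaction. Depth limits genes of few reads such as BIRC3, FAS and EDA2R.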

Other observations

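Of the 277 genes counted in at most 2 libraries, 125 reached 10 reads in the second 1035 library and the second doxorubicin library together and in no other. None of the 125 was called in the combination against 1035, and all 125 had a negative log2 fold change there. That sign follows largely from the choice of genes with fewer than 10 reads in both combination libraries. Among the 125 were GRIN2B and GFAP, named as examples after their values were seen. The 125 were not counted by tissue. GRIN2B, a glutamate receptor subunit, had 39 reads in the second 1035 library and 14 in the second doxorubicin library, against 0 to 2 reads in each of the other 6. GFAP, an astrocyte filament protein, had 15 and 10 reads and none elsewhere. Their part in the comparisons beyond the counts given without these libraries was not tested.

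CTD-2328D6.1, also chosen after its values were seen, had the most uneven counts within groups among the genes with large fold changes. It had 350 and 1956 reads in DMSO, 197 and 142 in doxorubicin, 149 and 159 in 1035, and 2616 and 192 in the combination. Its log2 fold change against 1035 of 3.20 was not called by edgeR's quasi-likelihood test (adjusted p = 0.85).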
